A study of Mus musculus with 10 samples.

Results

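The 10 genes described here report or tune the canonical Wnt response: the response genes *Axin2*, *Nkd1* and *Sp5*, the transcription factors *Lef1* and *Tcf7*, the R-spondin receptors *Lgr4*, *Lgr5* and *Lgr6*, and the ubiquitin ligases *Znrf3* and *Rnf43*. They were taken by gene symbol, with earlier results of these data known, from 32285 genes counted in every matrix. Their messenger RNA was measured by droplet single-cell sequencing in the developing lower jaw and incisor of wild type mice on 3 days of embryonic life, E11.5 (4 labelled samples), E14.5 (4) and E16.5 (2). Per the methods of the study, the earliest stage was taken as whole mandibles and both later stages as dissected buds of the lower incisor, all from the outbred NMRI strain and with no genetic change or treatment in any group. There was 1 count matrix for each stage, in which the labelled samples could not be told apart, so every stage counted as 1 sample, no difference has a replicate check, and all intervals cover counting error only. Stage, dissection, library and sequencing cannot be told apart.

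In the canonical Wnt pathway a Wnt ligand binds a Frizzled receptor with the co-receptor LRP5 or LRP6, β-catenin escapes destruction, and it acts on target genes together with TCF and LEF factors bound to DNA. ZNRF3 and RNF43 remove Frizzled receptors from the cell surface, and R-spondins bound to LGR4, LGR5 or LGR6 clear these ligases, so that more receptor stays. AXIN2, NKD1, ZNRF3 and RNF43 are made in response to the signal and dampen it. In teeth, Wnt signals act in both the dental epithelium and the mesenchyme beneath it, the Wnt-responsive enamel knot is a signalling centre of the epithelium, and *Lef1* is needed for tooth buds to go beyond the bud stage.

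After a filter on genes (at least 700) and mitochondrial UMIs (at most 20%), 6573, 6091 and 4511 cells remained in order of stage, with medians of 5664, 3471 and 6260 unique molecules (UMIs) per cell. Between 13 and 17 cell barcodes were shared by each pair of matrices. Lineages were called from marker genes, none of which is among the 10. This gave 5255, 4409 and 2563 mesenchymal cells at the 3 stages and 660 (E14.5) and 1532 (E16.5) epithelial cells. Only 12 cells were called epithelial at E11.5, so there is no epithelial level for that stage. Epithelial cells held a median of 5 and 6 of 11 epithelial markers at E14.5 and E16.5. Mesenchymal cells with 2 or more epithelial markers were 0.114%, 2.90% and 11.9% of those called at the 3 stages, and epithelial cells with 2 or more mesenchymal markers 14.2% and 15.4%; leaving such cells out moved 1 of the counts of members given below, from 2 to 1 (mesenchyme, E16.5 below E14.5). Clusters of mesenchymal calls whose 10 leading genes held more markers of epithelium or erythroid cells than of mesenchyme (239 of 4648 cells for E14.5, 54 of 2617 for E16.5) were set aside; clusters led by globin genes but without other erythroid markers, 849 cells at E11.5 and 358 at E16.5, were kept. Levels are given as CPM, the UMIs of a gene in all cells of a group per 1000000 UMIs of that group, with an exact 95% Poisson interval; UMIs were counted at the 3′ end, so levels of different genes are not compared.

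All 10 genes are protein coding and lie on the following places of the mouse genome GRCm38, as annotated by GENCODE. *Axin2* is at chr11:108920349-108950783 (+), *Nkd1* at chr8:88521354-88594884 (+) and *Sp5* at chr2:70474923-70477729 (+). *Lef1* is at chr3:131110471-131224356 (+) and *Tcf7* at chr11:52252371-52283014 (-). *Lgr4* is at chr2:109917647-110014257 (+), *Lgr5* at chr10:115450311-115587780 (-) and *Lgr6* at chr1:134983301-135105276 (-). *Znrf3* is at chr11:5276324-5444847 (-) and *Rnf43* at chr11:87662722-87735539 (+). Other annotated genes overlap *Axin2*, *Lef1*, *Nkd1*, *Lgr5*, *Rnf43* and *Tcf7*, on the same or the other strand, and whether counting used strand is not given in the sources used here, so part of those counts could belong to the overlapping gene.

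TCF and LEF factors bind DNA at short T-rich sites. *Sp5*, *Axin2* and *Lef1* were the 3 genes at least 2-fold higher in a *Shh*-rich cluster of E14.5 epithelium described below, among those with at least 50 counts. To show what lies before their starts, the 250 bases before the annotated start of *Sp5* (chr2:70474673-70474922, + strand), *Axin2* (chr11:108920099-108920348, + strand) and *Lef1* (chr3:131110047-131110296, + strand) are printed from RefSeq, build GRCm38.p6, 5′ to 3′. RefSeq lists 4 starts for *Lef1*, of which the first is used here, and it lies upstream of the start of the gene in the GENCODE positions above. Capitals mark the words CTTTGAA or CTTTGAT or CTTTGTA or CTTTGTT, on either strand and without overlap between words.
Sp5: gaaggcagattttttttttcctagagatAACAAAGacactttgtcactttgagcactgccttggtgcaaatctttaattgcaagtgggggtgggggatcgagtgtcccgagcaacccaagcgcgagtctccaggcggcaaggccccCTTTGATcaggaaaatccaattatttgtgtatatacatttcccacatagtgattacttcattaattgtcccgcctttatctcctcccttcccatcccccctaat
Axin2: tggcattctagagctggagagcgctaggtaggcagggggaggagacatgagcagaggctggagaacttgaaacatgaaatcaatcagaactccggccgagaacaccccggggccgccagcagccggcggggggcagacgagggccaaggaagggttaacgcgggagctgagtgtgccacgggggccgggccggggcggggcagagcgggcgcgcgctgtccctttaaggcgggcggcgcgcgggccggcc
Lef1: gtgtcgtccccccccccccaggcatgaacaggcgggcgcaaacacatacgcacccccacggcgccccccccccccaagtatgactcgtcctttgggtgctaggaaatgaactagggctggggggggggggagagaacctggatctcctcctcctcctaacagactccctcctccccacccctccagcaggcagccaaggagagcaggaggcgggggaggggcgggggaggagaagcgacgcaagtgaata
*Sp5* held 2 matches, CTTTGTT on the minus strand from 222 bases and CTTTGAT on the plus strand from 104 bases before the start. The windows of *Axin2* and *Lef1* shown here held none, and 1 of 4 *Lef1* windows held CTTTGTA. Of the 10 genes 8 had a window and 2 of these 8 a match, beside 18.9% of 27025 genes and 16.9% of 32851 windows of 250 bases before and 50 after a start. A match is a string of letters and no match says only that these letters are not in this window.

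*Axin2*, a scaffold of the β-catenin destruction complex that is used as a general readout of Wnt signalling, had its highest level in E11.5 mesenchyme. It stood at 95.9 CPM in that group (interval 93.0 to 99.0), 27.5 in E14.5 mesenchyme (25.1 to 30.1) and 32.1 in E16.5 mesenchyme (29.6 to 34.7). The epithelium was at 24.1 CPM at E14.5 (20.3 to 28.5) and 12.97 at E16.5 (11.4 to 14.7). Cells with an *Axin2* UMI were 37.5%, 9.64% and 18.6% of the mesenchyme at the 3 stages, and 15.7%, 5.03% and 5.36% once every cell was thinned to 2000 UMIs. The high level at E11.5 is therefore seen at equal depth as well, while the unthinned difference between E14.5 and E16.5 in share of cells was not. Endothelial cells were at 3.76 to 9.41 CPM, and the 57 immune cells of E11.5 at 23.4 on 12 counts. The E16.5 epithelial level was not above E16.5 endothelium beyond counting error, at 9.41 CPM (4.70 to 16.8, on 11 counts). Endothelial and immune cells served as references for free RNA, where erythroid and immune cells had been planned. At E16.5 there were only 3 erythroid and 27 immune cells. Endothelium may hold some of this RNA itself, with 25.97 CPM of *Lef1* at E11.5 where immune cells held none. A level not above endothelium is therefore not shown to be background.

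*Nkd1*, which encodes an antagonist of the Dishevelled proteins, was a mesenchymal gene in these data. Its mesenchymal level was 19.4 CPM at E11.5 (18.1 to 20.8), 32.1 at E14.5 (29.5 to 34.9) and 28.4 at E16.5 (26.1 to 30.9). In the epithelium it was 8.61 CPM at E14.5 (6.39 to 11.4) and 5.16 at E16.5 (4.16 to 6.32). These epithelial levels did not differ beyond counting error from the endothelial ones of the same stage, 2.51 and 9.41 CPM, whereas the E14.5 level stood above the 1.05 CPM of E14.5 immune cells (0.0267 to 5.87, on 1 count).

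*Sp5*, a zinc finger factor directly induced by Wnt and β-catenin, was an epithelial gene. It reached 32.0 CPM in E14.5 epithelium (27.6 to 37.0) and 10.3 in E16.5 epithelium (8.88 to 11.9). Its mesenchymal level was 1.27 CPM at E11.5 (0.953 to 1.66), 5.58 at E14.5 (4.52 to 6.81) and 2.77 at E16.5 (2.08 to 3.63). None of these mesenchymal levels stood above the endothelial one of the same stage (0.856 to 2.51 CPM on 1 or 2 counts) beyond counting error.

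*Lef1*, a DNA-binding partner of β-catenin, was higher in mesenchyme at each later stage and lower in epithelium. The mesenchyme was at 76.6 CPM at E11.5 (74.0 to 79.3), 100.5 at E14.5 (95.8 to 105) and 164 at E16.5 (159 to 170). The epithelium was at 52.5 CPM at E14.5 (46.8 to 58.8) and 36.5 at E16.5 (33.7 to 39.4). Thinned to 2000 UMIs, 12.7%, 13.97% and 23.4% of mesenchymal cells and 7.81% and 6.79% of epithelial cells had a *Lef1* UMI. Endothelial cells held 18.8 to 25.97 CPM and immune cells of E11.5 none, so all mesenchymal levels stood above both references, and the order E16.5, E14.5, E11.5 mesenchyme, E14.5 epithelium held beyond counting error at each step.

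*Tcf7*, which encodes the related factor TCF1, had the steepest course in mesenchyme among the factors. The level was 5.04 CPM at E11.5 (4.38 to 5.77), 22.1 at E14.5 (19.99 to 24.5) and 106 at E16.5 (101 to 110). Epithelial cells were at 5.68 CPM at E14.5 (3.91 to 7.98) and 16.6 at E16.5 (14.7 to 18.6). Both epithelial levels did not differ beyond counting error from endothelium of the same stage, 3.76 CPM at E14.5 (3 counts) and 11.98 at E16.5. Nor did the E11.5 mesenchymal level differ from that of E11.5 endothelium (1.24 CPM, 1 count).

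The receptors *Lgr4*, *Lgr5* and *Lgr6* bind the same R-spondins but did not share a pattern. *Lgr4* stayed between 13.4 and 15.6 CPM in the mesenchyme of all 3 stages, levels that did not differ beyond counting error. It was 36.3 CPM in E14.5 epithelium (31.6 to 41.6) and 16.9 in E16.5 epithelium (15.1 to 18.9). Reference levels were 1.71 to 6.18 CPM in endothelium and 15.7 in the erythroid cells of E11.5 on 11 counts.

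*Lgr5*, known from the stem cells of the intestine and hair follicle, was nearly absent from the counts at E16.5. In mesenchyme it was 5.90 CPM at E11.5 (5.19 to 6.69), 12.3 at E14.5 (10.7 to 14.1) and 0.628 at E16.5 (0.324 to 1.10, on 12 counts). The E14.5 epithelium was at 12.7 CPM (on 74 counts) and the E16.5 epithelium at 1.11 (0.677 to 1.71, on 20 counts). No *Lgr5* UMI was counted in endothelium, which allows up to 3.71, 3.76 and 2.57 CPM at the 3 stages. The E16.5 levels of both lineages lie under the limit this reference sets.

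*Lgr6* was, like *Lgr5*, higher in mesenchyme at E14.5 than at E11.5, but stood higher again at E16.5. It was at 0.0960 CPM at E11.5 (4 counts in 5255 cells), 6.73 at E14.5 (5.57 to 8.07) and 15.9 at E16.5 (14.2 to 17.8). Epithelial cells were at 6.72 CPM at E14.5 (4.78 to 9.18) and 3.55 at E16.5 (2.73 to 4.53). Neither epithelial level was above endothelium of its stage beyond counting error, 1.25 CPM at E14.5 (on 1 count) and 2.57 at E16.5. The E14.5 mesenchymal level was not above that of E14.5 endothelium either.

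*Znrf3* and *Rnf43* were both higher in epithelium. *Znrf3* was at 20.7 CPM in E14.5 epithelium (17.1 to 24.7) and 26.1 in E16.5 epithelium (23.8 to 28.6), and at 10.8, 9.26 and 10.9 CPM in the mesenchyme of the 3 stages. *Rnf43* was at 18.1 CPM in E14.5 epithelium (14.8 to 21.9) and 19.7 in E16.5 epithelium (17.7 to 21.8). In mesenchyme *Rnf43* had 9, 11 and 29 counts (0.216, 0.633 and 1.52 CPM). This was not above what the 0, 1 and 2 counts in endothelium allow, so it could not be told apart from background there. In mesenchyme *Znrf3* was likewise not above endothelium of the same stage beyond counting error, at 3.71, 5.01 and 5.13 CPM on 3, 4 and 6 counts. At E14.5 the mesenchyme (7.89 to 10.8) was also not above the 6.33 CPM of immune cells (2.32 to 13.8).

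**Figure D1:**
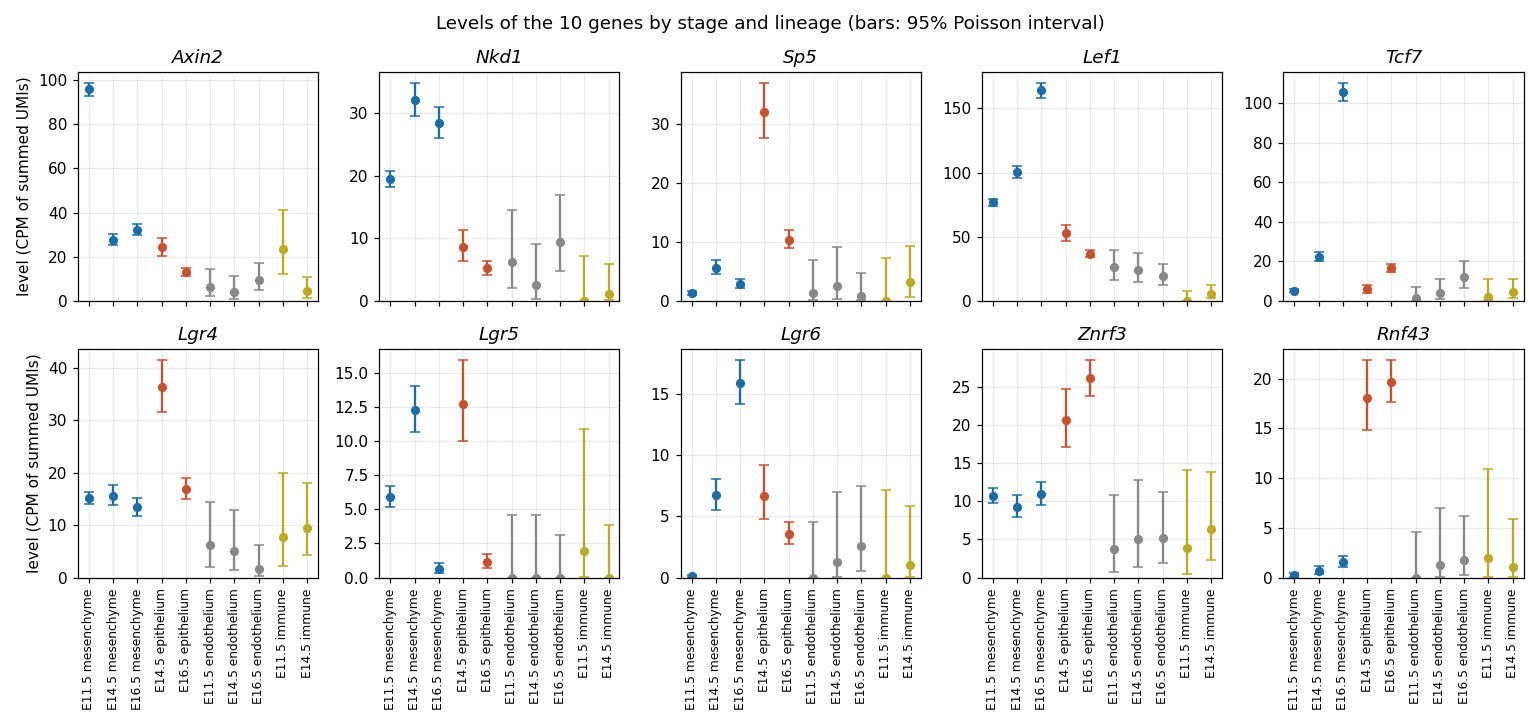
Level of each of the 10 genes (CPM of summed UMIs, linear axes from 0, one panel per gene) in the mesenchyme of 3 stages (blue), the epithelium of 2 stages (red) and the endothelial (grey) and immune (olive) reference groups; bars are exact 95% Poisson intervals. *Axin2* peaks in E11.5 mesenchyme at 95.9 CPM, *Lef1* and *Tcf7* in E16.5 mesenchyme at 164 and 106, and *Rnf43* in the epithelial groups at 18.1 and 19.7.

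To ask which of the 10 genes differed between the tissues, epithelium was set against mesenchyme within a stage, over the pooled cells of all its samples. A member was counted when it differed at least 2-fold, among genes with at least 50 counts in both groups together. At E14.5 all 10 reached 50 counts, 4 were at least 2-fold higher in epithelium (*Sp5*, *Lgr4*, *Znrf3*, *Rnf43*) and 2 at least 2-fold lower (*Nkd1*, *Tcf7*), beside 9.41% higher and 11.8% lower over all 11382 genes. *Sp5* was 5.74-fold higher (exact conditional binomial 95% interval 4.47 to 7.42) and *Rnf43* 28.6-fold (15.3 to 59.0); with every cell thinned to 2000 UMIs the ratios were 3.72 and 15.4. *Lgr4* was 2.32-fold higher (1.93 to 2.79) and *Znrf3* 2.23-fold (1.75 to 2.84). Both of these last values rested in part on 103 epithelial cells led by mitochondrial genes, with 72.8 CPM of *Lgr4* and 38.2 of *Znrf3*; without the clusters led by globin or mitochondrial genes the ratios were 1.93 and 1.91 and the count of higher members 2.

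*Nkd1* was 3.73-fold lower in E14.5 epithelium (2.79 to 5.08) and *Tcf7* 3.90-fold (2.73 to 5.74), while *Lef1* was 1.91-fold lower (1.69 to 2.17). *Axin2* had a ratio of 0.877 (0.721 to 1.06), *Lgr5* of 1.04 (0.784 to 1.35) and *Lgr6* of 0.998 (0.676 to 1.44), all within counting error, although the *Lgr5* ratio was 0.645 after thinning. The response genes thus divided at this stage: *Sp5* lay on the epithelial side, *Nkd1* on the mesenchymal side and *Axin2* on neither. The median log2 ratio of the 10 genes was 0.02, beside 0.01 for all genes tested.

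At E16.5 the epithelium stood lower in more of the genes. Of 9 with 50 counts, 3 were at least 2-fold higher (*Sp5*, *Znrf3*, *Rnf43*) and 5 at least 2-fold lower (*Axin2*, *Lef1*, *Nkd1*, *Lgr6*, *Tcf7*), beside 10.3% and 12.1% of 12677 genes. *Axin2* was 2.47-fold lower in epithelium (2.12 to 2.89) and *Lef1* 4.50-fold (4.14 to 4.91). *Tcf7* was 6.38-fold lower (5.65 to 7.23), *Nkd1* 5.52-fold (4.42 to 6.95) and *Lgr6* 4.50-fold (3.42 to 5.98). *Lef1* and *Tcf7* were thus both higher in the mesenchyme of this stage. On the epithelial side were *Rnf43*, 12.98-fold higher (8.88 to 19.7), *Sp5*, 3.72-fold (2.73 to 5.15), and *Znrf3*, 2.39-fold (2.03 to 2.83). *Lgr4* was 1.26-fold higher (1.07 to 1.497) and *Lgr5* had 32 counts in all, with a ratio of 1.77 (0.823 to 3.96) that ranged from 0.889 to 3.46 over the settings tried. The median log2 ratio of the 9 genes with 50 counts was -1.31, the value of *Axin2* itself, beside 0.07 for all genes tested. The *Sp5* counts of E16.5 mesenchyme lay largely in 1 cluster led by globin genes (27 of 53); without such clusters the *Sp5* ratio was 6.74, and that of E16.5 over E14.5 mesenchyme 0.274.

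**Figure D2:**
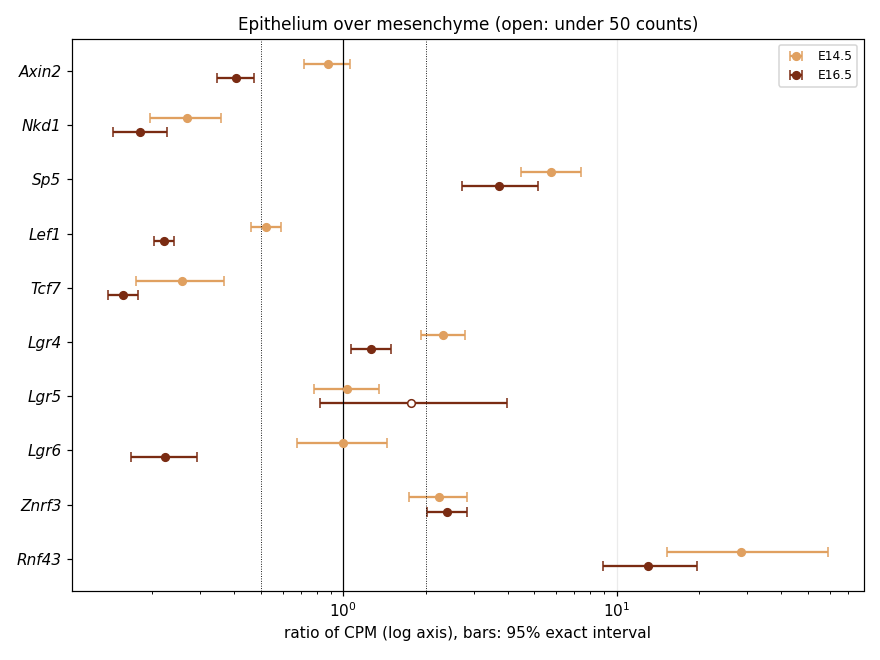
Ratio of CPM in epithelium to CPM in mesenchyme for each of the 10 genes at E14.5 (light orange) and E16.5 (dark brown), on a log axis; bars are exact 95% intervals, dotted lines mark 2-fold, and an open point has under 50 counts. *Sp5*, *Znrf3* and *Rnf43* lie right of the 2-fold line at both stages, *Nkd1* and *Tcf7* left of it at both, and *Axin2* moves from 0.877 to 0.405.

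Stage comparisons were made within a lineage. They share their groups with one another and with the comparisons of tissues, so they are not independent of them. The median gene also differed between stages, with a ratio of 0.867 for mesenchyme E14.5 over E11.5 and 1.12 for E16.5 over E14.5 in both lineages, and values scaled so that the median gene has a ratio of 1 are given where they matter. Between E11.5 and E14.5, 4 of 9 members with 50 counts were at least 2-fold higher in mesenchyme (*Sp5*, *Lgr5*, *Lgr6*, *Tcf7*) and 1 at least 2-fold lower (*Axin2*), beside 10.5% and 11.3% of 12718 genes. *Axin2* was 3.49-fold lower at E14.5 (3.17 to 3.84), and its ratio of 0.287 became 0.331 relative to the median gene. *Tcf7* was 4.40-fold higher (3.71 to 5.22), *Sp5* 4.39-fold (3.11 to 6.25) and *Lgr5* 2.09-fold (1.73 to 2.52). *Lgr6* had a ratio of 70.1 with the wide interval (26.7 to 262) that 4 counts at E11.5 allow. *Nkd1* was 1.65-fold higher (1.48 to 1.84) and *Lef1* 1.31-fold (1.24 to 1.39). *Axin2* thus stood opposite to the other response genes and to both factors, with whole mandibles at one stage and incisor buds at the other. For *Sp5* and for *Lgr6*, neither of the mesenchymal levels behind the ratio stood above endothelium beyond counting error.

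From E14.5 to E16.5 in mesenchyme, 2 of 9 were at least 2-fold higher (*Lgr6*, *Tcf7*) and 2 at least 2-fold lower (*Sp5*, *Lgr5*), beside 7.71% and 2.12% of 12242 genes. *Tcf7* was 4.77-fold higher (4.28 to 5.34) and *Lgr6* 2.37-fold (1.91 to 2.96). *Lgr5* had a ratio of 0.0510 (0.0259 to 0.0909), or 19.6-fold lower, and of 0.0292 after thinning. Its E14.5 level was uneven over the clusters described below, high in cells led by *Osr1* and low in those led by *Crym*. No mesenchymal cluster of E16.5 was led by *Osr1*, and what part the mix of cells has in this ratio was not tested. *Sp5* had a ratio of 0.497 (0.348 to 0.701), which lies at the 2-fold limit and was between 0.504 and 0.544 under 5 other settings of the filters, calls or scale. *Lef1* was 1.63-fold higher (1.54 to 1.73), or 1.47-fold relative to the median gene. *Axin2*, at 1.17 (1.03 to 1.32), was 1.05 relative to the median gene. *Nkd1*, at 0.886 (0.786 to 0.999), turned to 1.04 when cells were thinned to 2000 UMIs. In another random draw at that depth, 5.62% of E14.5 and 5.01% of E16.5 mesenchymal cells had a *Nkd1* UMI.

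In the epithelium from E14.5 to E16.5, 1 of the 10 was at least 2-fold higher (*Tcf7*) and 3 at least 2-fold lower (*Sp5*, *Lgr4*, *Lgr5*), beside 7.71% and 2.06% of 11479 genes. *Lgr5* had a ratio of 0.0870 (0.0503 to 0.144), which was 0.156 after thinning and 0.0403 without cells that held 2 or more markers of a second lineage. *Sp5* was 3.11-fold lower (2.52 to 3.83) and *Lgr4* 2.15-fold (1.79 to 2.57). *Tcf7* was 2.92-fold higher (2.03 to 4.32). Lower by less were *Axin2*, at a ratio of 0.538 (0.435 to 0.668), *Lgr6*, at 0.528 (0.349 to 0.808), and *Lef1*, at 0.694 (0.605 to 0.798); relative to the median gene they stood at 0.479, 0.470 and 0.618. *Nkd1* had a ratio of 0.599 (0.420 to 0.862) that turned to 1.13 at 2000 UMIs per cell. In another random draw at that depth, 9 of 627 epithelial cells (1.44%) at E14.5 and 14 of 1457 (0.961%) at E16.5 had a *Nkd1* UMI. The direction at this depth thus rests on few counts and on the draw. *Znrf3*, at 1.26 (1.03 to 1.56), and *Rnf43*, at 1.09 (0.873 to 1.37), were the members nearest to no difference, and relative to the median gene they were at 1.12 and 0.969. Without the clusters led by globin or mitochondrial genes the *Lgr4* ratio was 0.560. *Lgr5* was thus lower at E16.5 in both lineages, and *Tcf7* higher in both. Neither epithelial *Tcf7* level differed beyond counting error from endothelium of its stage, so its epithelial ratio is not shown to lie above background. The same limit holds for both epithelial *Lgr6* levels and for the E16.5 epithelial *Axin2* level, none of which stood above endothelium beyond counting error.

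**Figure D3:**
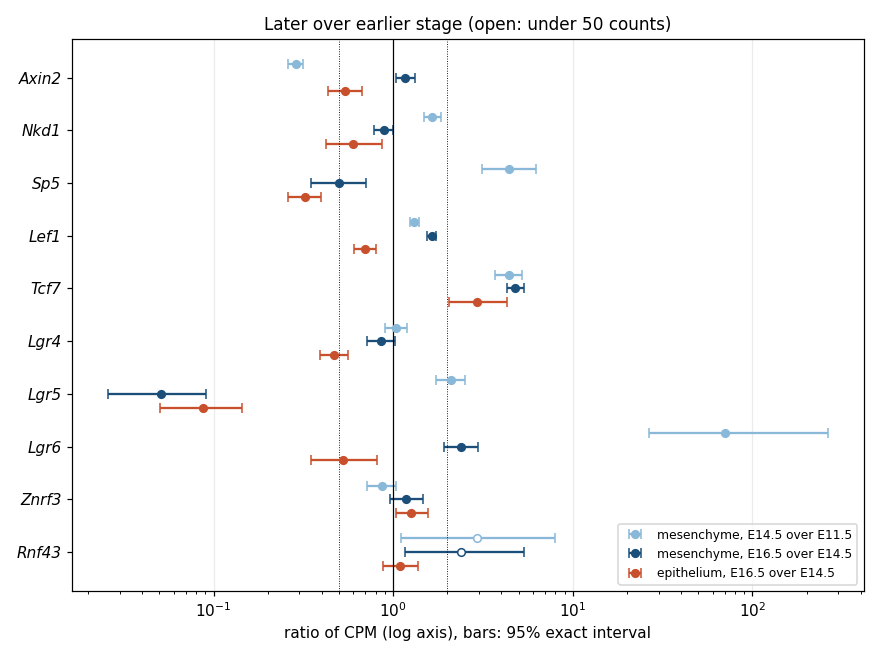
Ratio of CPM at the later stage to CPM at the earlier stage, on a log axis, for mesenchyme E14.5 over E11.5 (light blue), mesenchyme E16.5 over E14.5 (dark blue) and epithelium E16.5 over E14.5 (red); bars are exact 95% intervals, dotted lines mark 2-fold, and open points have under 50 counts. *Lgr5* lies far left of the 2-fold line in both E16.5 comparisons (0.0510 and 0.0870), *Tcf7* right of it in all 3, and *Axin2* is at 0.287, 1.17 and 0.538.

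The other genes of the pathway were described from a list of 42, of which 40 had 50 counts in either tissue comparison. At E14.5, 8 were at least 2-fold higher and 10 lower in epithelium, and at E16.5, 5 and 10, beside the shares of all genes given above. The R-spondins, ligands of the Lgr receptors, were all 4 lower in epithelium at both stages. *Rspo3* was at 2.07 CPM in E14.5 epithelium and 82.1 in the mesenchyme, and *Rspo2* at 0.998 in E16.5 epithelium and 68.8 in the mesenchyme. *Rspo1* had no count in E14.5 epithelium, at least 34.4-fold lower than in mesenchyme (17.8 CPM) at a floor of 3 counts. As between epithelium and mesenchyme, the R-spondins were thus counted almost wholly in mesenchyme while *Lgr4* was counted in both tissues. R-spondin levels in other lineages are not described here.

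Within the mesenchyme each R-spondin had its own course over the stages. *Rspo2* was at 34.0, 8.63 and 68.8 CPM in order of stage. *Rspo3* was at 13.2, 82.1 and 30.0 CPM, *Rspo1* at 3.96, 17.8 and 37.0, and *Rspo4* at 0.624, 2.88 and 23.8. By these values *Rspo3* was the R-spondin whose mesenchymal level, like that of *Lgr5*, was highest at E14.5, and *Rspo1* and *Rspo4* were, like *Lgr6*, higher at each later stage.

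None of the 8 cytoplasmic components differed 2-fold in any of the 5 comparisons. Over all genes the share called in a direction was 2.06% to 12.1%, so this is not read as a trait of the role. *Ctnnb1*, which encodes β-catenin, was at 371 CPM in E14.5 epithelium and 204 in mesenchyme, a ratio of 1.82 (1.72 to 1.92), and the kinase gene *Csnk1a1* at 394 and 367. Among the 10 nuclear genes, the TCF family member *Tcf7l1* was at 33.1 CPM in E14.5 epithelium and 69.2 in mesenchyme (ratio 0.478), and the co-repressor gene *Tle4* at 141 and 66.9 at E16.5 (ratio 2.11). Of 11 receptors with 50 counts, 4 were at least 2-fold higher and 1 at least 2-fold lower in E14.5 epithelium, beside 9.41% and 11.8% of all genes. *Fzd3* was at 151 CPM there and 59.3 in mesenchyme, and *Fzd6*, named after its values were seen, at 12.1 and 0.805, a ratio of 14.97 (8.35 to 28.8). The co-receptor gene *Lrp6* did not differ beyond counting error between the tissues at either stage, with ratios of 1.004 (0.877 to 1.15) and 1.005 (0.926 to 1.09).

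Among the other feedback and target genes, *Tnfrsf19* was higher in epithelium, 7.76-fold at E14.5 and 5.10-fold at E16.5, and *Dkk1*, a secreted antagonist of LRP6, was 46.3-fold lower at E14.5 (17.97 to 170) and 3.55-fold lower at E16.5. *Wif1*, whose product binds Wnt ligands, was at 2.30, 68.8 and 192 CPM in mesenchyme in order of stage. *Notum*, which encodes an enzyme that inactivates Wnt ligands, was 2.44-fold higher in epithelium at E14.5 (1.57 to 3.79) and 17.7-fold lower at E16.5 (11.4 to 28.8), with 20.6 CPM in E16.5 mesenchyme.

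To see where within a lineage the 10 genes were counted, epithelium and mesenchyme were clustered within each stage after the 10 genes and the pathway list had been left out of the genes that set the clusters. In 10 clusters of at least 50 cells 3 or more members differed at least 2-fold in 1 direction, and only there is a count of members given. In the other clusters of that size fewer members did so. This rule places each printed count above the share of genes beside it, so that contrast is not a result. Clusters are called by their leading genes and were not given cell type names, and each is set beside the other cells of its lineage and stage as a description. The 77 cells of E14.5 epithelium led by *Shh*, *Wif1* and *Thbs1* stood apart. They held 97.6 CPM of *Axin2*, 7.19-fold over the other epithelial cells (5.09 to 10.2), and 221 CPM of *Lef1*, 7.81-fold (6.20 to 9.85). *Sp5* was at 85.3 CPM (3.49-fold, 2.53 to 4.78) and *Lgr6* at 23.4 (5.40-fold, 2.69 to 10.6), although the *Lgr6* ratio was 1.02 when cells were thinned to 2000 UMIs. *Lgr4*, in contrast, had 12 counts, a ratio of 0.421 (0.214 to 0.752) that was 0.812 after thinning. Of 8 members with 50 counts, 3 were at least 2-fold higher in this cluster (*Axin2*, *Lef1*, *Sp5*), beside 4.68% of 7988 genes. The same cells held 97.6 CPM of *Fgf4*, a marker of the enamel knot, and 50.9 of *Notum* and 30.3 of *Dkk4*.

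The other E14.5 epithelial clusters were lower in *Axin2*. The 297 cells led by *Crabp1* held 8.36 CPM of *Axin2* and 22.0 of *Lef1*, but 34.5 of *Sp5*; 3 of 8 members were at least 2-fold lower (*Axin2*, *Lef1*, *Znrf3*), beside 7.05% of genes. The 183 cells led by *Krt15* held 17.5 CPM of *Axin2* and a single count each of *Sp5* and *Nkd1*, a *Sp5* ratio of 0.0175 (0.000440 to 0.0986). *Sp5* thus separated these 2 clusters from each other more than *Axin2* did.

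At E16.5 the 143 epithelial cells led by *Pcp4*, the cluster with most *Sox2* (89.4 CPM), were low in the response genes. *Lef1* was at 3.44 CPM, 11.8-fold lower than in the other epithelial cells (5.71 to 29.5). *Axin2* was at 3.44 CPM (ratio 0.243, 0.0964 to 0.508), *Sp5* had 1 count and *Lgr6* none. *Lgr4* was at 38.3 CPM, 2.70-fold higher (2.06 to 3.51), and 9 of the 20 *Lgr5* counts of the epithelium lay here. *Tcf7* was at 27.0 CPM, 1.77-fold higher (1.30 to 2.38). At a coarser clustering these 143 cells lay in a larger cluster of 641. The *Tcf7* ratio of that cluster was 0.828, and those of *Lef1*, *Axin2* and *Sp5* were 0.406, 0.543 and 0.256. Of 9 members with 50 counts, 5 were at least 2-fold lower (*Axin2*, *Lef1*, *Nkd1*, *Sp5*, *Lgr6*), beside 7.75% of 11036 genes. At the main clustering, *Lgr4* was thus highest in the cluster of this epithelium where *Axin2*, *Lef1* and *Sp5* were lowest. The *Lgr4* ratio of the cluster of 641 cells is not given here.

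The 509 cells led by *Stmn2*, with 340 CPM of *Shh*, had *Lef1* at 59.1 CPM (2.12-fold, 1.81 to 2.48), *Nkd1* at 8.24 (2.07-fold) and *Lgr6* at 5.63 (2.04-fold), the 3 of 9 members that were at least 2-fold higher, beside 2.65% of genes. *Stmn2* is also a neuronal marker, and 192 epithelial cells of this stage held 3 or more markers of a neuron list. The 437 cells led by *Sparcl1* had the highest ligase levels, *Znrf3* at 39.2 CPM (1.76-fold, 1.45 to 2.14) and *Rnf43* at 27.3 (1.57-fold, 1.24 to 1.97), and little *Sp5* (2.18 CPM). In the 63 cells led by *Enpp2*, 3 of 9 members were at least 2-fold lower (*Lgr4*, *Lgr6*, *Rnf43*), on 10 counts in all and beside 14.9% of genes.

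Splitting the epithelium by single genes gave a like description. The cells are the same, and *Shh* also led a cluster described above, so the *Shh* split is not a separate check. At E14.5 the 95 cells with a *Shh* UMI held *Axin2* at 63.2 CPM and the other 565 at 14.1, a ratio of 4.49 (3.18 to 6.36). *Lef1* was 5.45-fold higher (4.32 to 6.90) and *Sp5* 4.62-fold (3.43 to 6.24). At E16.5 the same split gave 2.01 for *Axin2* (1.54 to 2.63), 2.47 for *Lef1* (2.10 to 2.90) and 1.84 for *Sp5* (1.36 to 2.48). *Nkd1* had a ratio of 1.51 at E14.5 (0.754 to 2.87), within counting error, and of 2.10 at E16.5 (1.36 to 3.24). *Axin2*, *Sp5* and *Lef1* were thus higher in *Shh* cells at either stage.

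*Sox2* marks the dental epithelial stem cells of the incisor. At E14.5 the 162 cells with a *Sox2* UMI had a ratio of 0.446 for *Axin2* (0.293 to 0.665), 0.447 for *Lef1* (0.339 to 0.585), 0.562 for *Sp5* (0.3997 to 0.779), 0.996 for *Lgr4* (0.748 to 1.32) and 1.70 for *Lgr5* (1.05 to 2.77) over the other 498. At E16.5 the 121 *Sox2* cells held *Lef1* at 7.10 CPM and the other 1411 at 41.0, a ratio of 0.173 (0.1003 to 0.280). *Lgr4* was at 40.1 and 13.4 CPM, with an interval of the ratio of 2.33 to 3.84, and *Lgr5* had 13 counts in the *Sox2* cells and 7 in the others, 12.1-fold higher per UMI (4.50 to 35.9). *Sp5* had a ratio of 0.255 (0.101 to 0.537), and *Lgr6* had 1 and 63 counts. Cells with a *Sox2* UMI were deeper, with a median of 12837 UMIs at E16.5 where the others had 7239; the ratios are per UMI, and what part depth has in them was not tested.

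In the mesenchyme of E11.5 the 803 cells led by *Pax3* held the most of several members, with *Axin2* at 124 CPM, *Lef1* at 144 (2.40-fold, 2.23 to 2.58), *Nkd1* at 31.9 (1.95-fold) and *Tcf7* at 10.1 (2.65-fold, 1.98 to 3.52). At the coarser clustering 615 of these 803 cells lay in a cluster of 3217. In that cluster *Lef1*, *Nkd1* and *Axin2* had ratios of 1.58, 1.25 and 2.13. The 1015 cells led by *Plagl1* were at 30.9 CPM of *Axin2* (ratio 0.276, 0.242 to 0.313) and 39.4 of *Lef1* (0.458), but at 24.6 of *Lgr4* (1.93-fold) and had 95 counts of *Lgr5* (2.54-fold, 1.94 to 3.30). Cells led by *Nr2f1* (1813) were close to the *Pax3* cells in *Axin2*, at 119.9 CPM, and cells led by *Barx1* (775) were at 65.8. In the *Barx1* cells 3 of 8 members were at least 2-fold lower (*Sp5*, *Lgr5*, *Tcf7*), beside 3.23% of 11841 genes. *Lgr5* was thus highest in the cluster of this stage where *Axin2* was lowest.

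In the E14.5 mesenchyme the clusters richest in the receptors and in the factors were different ones. In the 514 cells led by *Osr1*, *Lgr4* was at 73.3 CPM (6.83-fold, 5.28 to 8.79) and *Lgr5* at 63.8 (8.04-fold, 6.05 to 10.6), with *Lef1* at 25.7 (0.240, 0.167 to 0.335) and *Tcf7* at 2.20; 3 of 9 members were at least 2-fold lower (*Lef1*, *Sp5*, *Tcf7*), beside 9.63% of 10545 genes. In the 1187 cells led by *Crym*, *Lef1* was at 155 CPM (2.40-fold, 2.18 to 2.65), *Tcf7* at 33.5 (2.28-fold, 1.85 to 2.81) and *Nkd1* at 44.9 (1.90-fold), with *Lgr5* at 1.01 (0.0513, 0.0204 to 0.108). There 4 of 9 were at least 2-fold lower (*Sp5*, *Lgr4*, *Lgr5*, *Lgr6*), beside 13.7%, so that all 3 receptors stood low where *Lef1* and *Tcf7* were highest. In the 1407 cells led by *Igfbp5*, 3 of 9 were lower (*Lef1*, *Nkd1*, *Lgr5*), beside 6.86%, and *Lgr6* was at 11.7 CPM (2.26-fold, 1.53 to 3.31). The 563 cells led by *Col8a1* combined the highest *Axin2* among the mesenchymal clusters of the stage, 45.9 CPM (1.80-fold, 1.39 to 2.30), with *Lgr5* at 35.7 (3.62-fold, 2.64 to 4.92). So *Lgr5* was not always apart from *Axin2*.

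At E16.5 *Lef1* reached 277 CPM in the 603 mesenchymal cells led by *Lypd1* (1.98-fold, 1.83 to 2.14), where *Nkd1* was at 13.3 (0.421, 0.303 to 0.572). At the coarser clustering 595 of these 603 cells lay in a cluster of 1051, with a *Nkd1* ratio of 0.654. The 560 cells led by *Smpd3* had most *Lgr6*, 23.8 CPM (1.73-fold, 1.35 to 2.21), together with 54.5 CPM of *Rspo4* and 40.2 of *Notum*. In the 509 cells led by *Pdzrn4*, *Tcf7* was at 31.4 CPM (0.259, 0.211 to 0.316), *Lef1* at 66.8 (0.362) and *Axin2* at 12.2 (0.337), and *Lgr4* at 24.7 (2.24-fold, 1.70 to 2.93). Of 8 members with 50 counts 5 were at least 2-fold lower in these cells (*Axin2*, *Lef1*, *Nkd1*, *Lgr6*, *Tcf7*), beside 6.97% of 11255 genes.

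**Figure D4:**
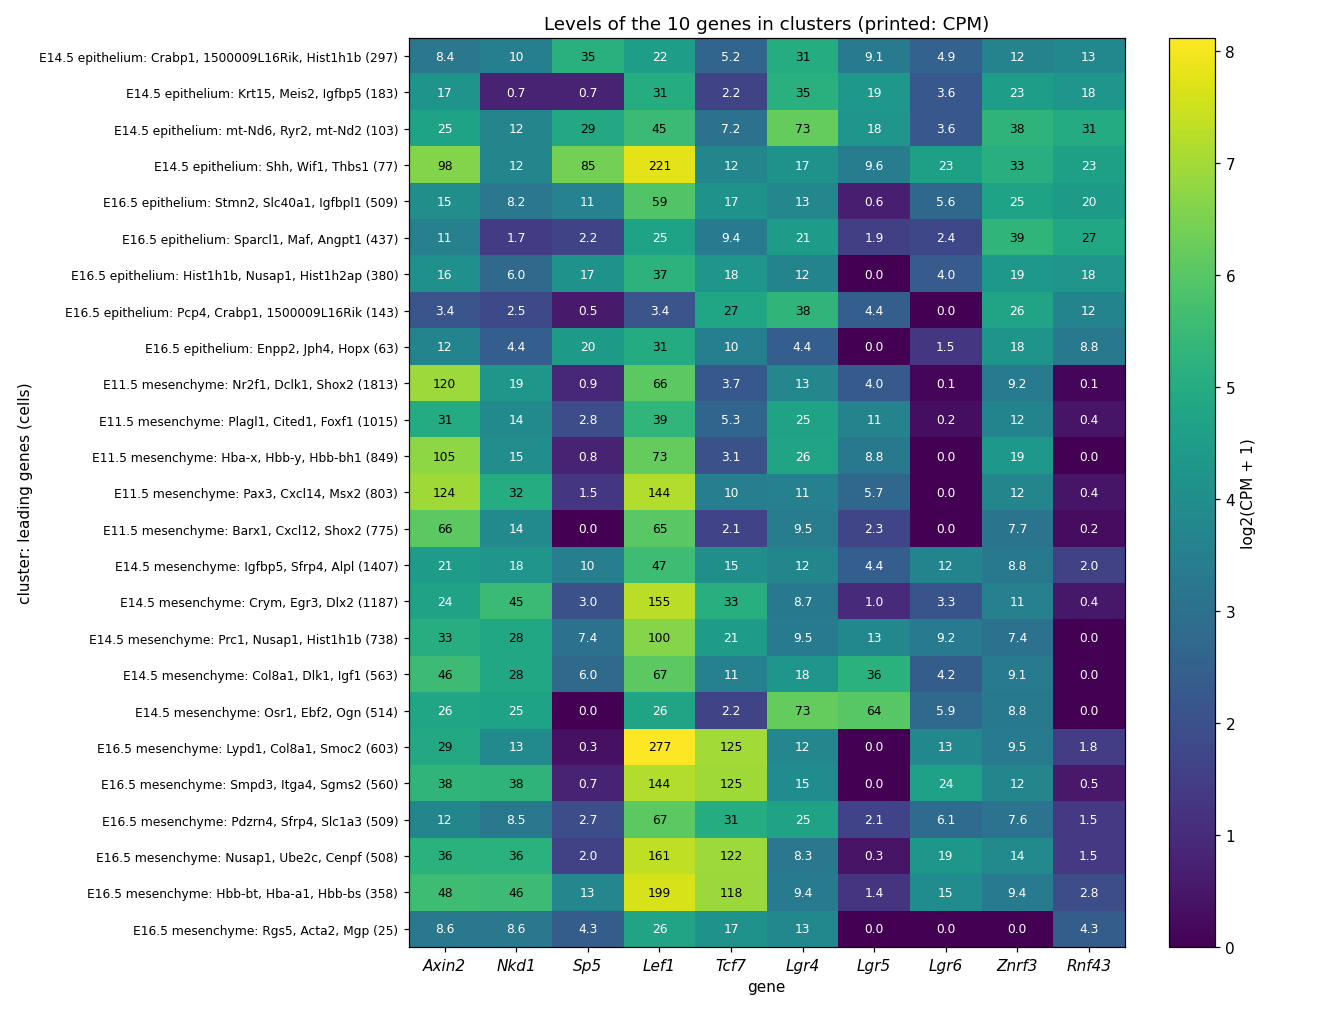
Levels of the 10 genes in the clusters of epithelium and mesenchyme at each stage; rows are clusters with their leading genes and number of cells, columns are genes, colour is log2(CPM + 1) and the printed values are CPM. *Axin2* is at 65.8 CPM or more in the E11.5 mesenchyme rows other than that led by *Plagl1* (30.9). Beside the other rows of their lineage and stage, *Lef1* and *Axin2* are high in the *Shh* row of E14.5 epithelium. *Lgr4* and *Lgr5* are likewise high in the *Osr1* row of E14.5 mesenchyme.

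Detection in the same cells was compared after thinning to 2000 UMIs. In E11.5 mesenchyme *Lef1* was detected in 19.9% of the 770 cells with an *Axin2* UMI (exact Clopper-Pearson 95% interval 17.1 to 22.9) and in 11.4% of the 4136 without (10.4 to 12.4). *Nkd1* was detected in 7.27% (5.54 to 9.34) and 3.68% (3.12 to 4.29) of the same cells. For *Lgr4* the shares were 2.34% and 2.71%, within counting error. In E14.5 mesenchyme *Lef1* was detected in 19.1% of 194 cells with *Axin2* (13.8 to 25.3) and 13.7% of 3664 without (12.6 to 14.9), and in E16.5 mesenchyme in 28.9% of 135 (21.4 to 37.3) and 23.1% of 2382 (21.4 to 24.8); these intervals overlap. Only 26 and 30 epithelial cells had an *Axin2* UMI at this depth, too few for a comparison.

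Over 24 clusters of at least 50 cells, Pearson's r of log2(CPM + 10) was 0.88 for *Znrf3* with *Rnf43*, 0.69 for *Lgr4* with *Lgr5*, 0.69 for *Lgr6* with *Tcf7*, 0.67 for *Lef1* with *Nkd1* and 0.61 for *Axin2* with *Lef1*. *Nkd1* and *Rnf43* had r = -0.68, and *Lgr5* with *Lgr6* -0.14. The clusters come from only 3 libraries and share lineage and depth, so these values describe them and are not tests.

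The genes most like a member were sought by Pearson's r of log2(CPM + 10) over 11 stage and lineage groups of at least 50 cells, among 8634 or 8635 genes, and these groups share libraries and depth. For *Axin2* they were *Wnk3* (0.97), *6720427I07Rik* and *Gdf11*, and for *Sp5* *Acaa1b* (0.97), *Sox2* and *Hs3st2*; this likeness is between groups, since within the epithelium *Sp5* was lower in the cells with a *Sox2* UMI. For *Tcf7* they were *Plppr1* (0.98), *Pdgfrl* and *Col8a1*. For *Lgr4* they were *Aen* (0.92), *Dtnb* and *Irs2*, for *Lgr5* *Hs6st2* (0.87), *Mirg* and *Fiz1*, and for *Lgr6* *Wif1* (0.99), *Mgp* and *Ddit4l*. *Znrf3* had *Mir99ahg* (0.97), *Kctd1* and *Chd2*, and *Rnf43* had *Urah* (0.99), *Esrp1* and *S100a14*. Most of these names depended on the measure, since with Spearman's correlation 0 to 2 of each 3 remained. *Wif1* was also the gene most like *Lgr6* over the 24 clusters, with r = 0.88.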

How the data were processed

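Wild type mouse mandibles (E11.5) and lower incisor buds (E14.5, E16.5) were profiled with 10x 3′ v3 chemistry; per the methods, 8, 4 and 2 mandibles. The authors deposited 3 matrices of whole-number UMI counts, not normalized, made with Cell Ranger 4.0.0 on mm10. Samples within a stage could not be told apart, so no test was possible. The 10 genes and all lists were chosen with earlier results of these data known; the rules for scoring lineages and setting clusters aside were made after seeing the data. A cell took the lineage with the largest share of markers detected (at least 3). Ratios compare summed counts, with exact conditional binomial intervals. Clusters used SCTransform (sctransform 0.4.2, Seurat 5.3.0, R 4.3.3), 20 components and Leiden resolution 0.4 (leidenbase 0.1.32); other steps used Python 3.11.15, scanpy 1.11.5 and scipy 1.17.1. Genes named were the 10, up to 4 per role of the pathway list by CPM, 3 leading genes per cluster and the 3 most like each gene, which for *Nkd1* and *Lef1* are not reported here. Scrublet's own threshold marked 0, 0 and 2 cells (0, 0 and 0.0443%), so it had not worked and no doublets were removed; leaving out the top 5% of scores is an alternative. A neuron marker list was not used for calls. Ratio intervals were tried only on simulated Poisson counts, the model they assume, which leaves out UMIs that gather in single cells. Gene positions and promoter sequences come from GENCODE and RefSeq.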

Additional observations from a re-analysis of the deposited data

Results flagged for a closer look

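For 3 of the 10 genes the ratio of E16.5 to E14.5 pointed one way in the epithelium and the other way in the mesenchyme. The share of all genes that do so was not computed, so this count is not read as a trait of these genes. *Axin2* had a ratio of 0.538 in epithelium and 1.17 in mesenchyme, *Lef1* of 0.694 and 1.63, and *Lgr6* of 0.528 and 2.37. With 1 matrix per stage the difference between the tissues was not tested. The ratio of *Axin2* in mesenchyme was 1.05 relative to the median gene. In epithelium, the *Lgr6* levels of both stages and the E16.5 *Axin2* level were not above endothelium beyond counting error.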

How the results depend on the processing

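Of 600 ratios of the 10 genes recomputed under the alternatives, 565 stayed inside their counting interval, 33 left it, and 2 that had stood beyond counting error changed direction; of 106 cluster ratios, 77, 28 and 1, and of 140 counts of members, 130 stayed within 1.5 times and 10 did not. The count of members at least 2-fold lower in E16.5 over E14.5 mesenchyme was 1, not 2, with cells of at least 200 genes and no mitochondrial limit, with 1000 genes or more and a mitochondrial limit of 10%, with at least 4 markers, with the mean of each cell's CPM, and without cells that have 2 or more markers of a second class; the count higher was 1, not 2, when thinned to 2000 UMIs. In epithelium E16.5 over E14.5 the count lower was 5, not 3, with the mean of each cell's CPM and with the median gene at a ratio of 1, and 6 at a fold of 1.5. The count higher in E14.5 epithelium was 2, not 4, without clusters led by globin or mitochondrial genes, a setting chosen after seeing the data, as were the median gene scaling and the keeping of clusters that were set aside. Thinning turned the *Nkd1* ratio of E16.5 over E14.5 to 1.13 in epithelium and 1.04 in mesenchyme. In another random draw at 2000 UMIs, the share of cells with a *Nkd1* UMI stayed lower at E16.5 in both tissues. At Leiden resolution 0.2 the 143 *Pcp4* cells lay in a cluster of 641 cells, whose *Tcf7* ratio was 0.828. At that resolution E14.5 epithelium formed 1 cluster and gave no value. Causes were not tested beyond what each setting leaves out. No paired analysis was possible because no column or barcode of the matrices names a sample within a stage. Depth limits members with few counts, such as *Rnf43* in mesenchyme and *Lgr5* at E16.5.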
